A study of Nasonia vitripennis with 39 samples.

Results

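The genes described here are oskar and nanos, the germ plasm genes named in the gene tables of the parasitoid wasp Nasonia vitripennis. They were found by matching both symbols without regard to case, which gave 2 of the 14621 genes in the count table, each with a single row in the count table and in the TPM table. TPM is a level of transcripts scaled for gene length and library total. NCBI lists nanos as gene 100104006, with the synonym nos, and oskar as gene 100500744.

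The series measured poly(A)-selected RNA in heads and abdomens of the Whiting Polyploid Line (strain WPL), a line in which extra chromosome sets arose spontaneously, 1 day after emergence. All 8 groups share that strain and age. They are abdomens of 3N females (5 libraries), 2N females (4), 2N males (5) and 1N males (5), and heads of 3N females, 2N females, 2N males and 1N males (5 each), where 1N, 2N and 3N stand for 1, 2 and 3 chromosome sets. In this haplodiploid wasp, males are usually 1N and females usually 2N, so 2N males and 3N females are the animals with an added set. No label tells single animals from pools, or ties a head to its abdomen, so every p-value here refers to the spread among libraries, which may in part be technical.

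In Drosophila, Oskar protein starts the assembly of the germ plasm at the posterior of the oocyte, the cytoplasm that later directs the formation of the germ cells. Nanos is an RNA-binding repressor of translation that acts with Pumilio in posterior patterning and in germ cells. Both mRNAs are made in the female germline and placed in the egg, and in Nasonia the germ plasm is gathered in a body called the oosome. In Drosophila larvae both genes also act in sensory neurons.

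The libraries held 16.3 to 132 M estimated counts each. Libraries over 30 M are called deep, and these were 19 of 39, among them 3 of 5 3N female heads and 0 of 5 2N female heads. The summed level of 4 neuron genes was 3.70 to 16.1 TPM in female abdomens and 49.03 to 93.96 TPM in male abdomens, against 5563 to 7295 TPM in 3N female heads, 7544 to 9411 TPM in 2N female heads and 3150 to 8458 TPM in male heads. The head of a 2N female called B21 stood apart from its group in both genes and the abdomen of a 3N female called B39A in nanos, and B39A was also the highest of its group in oskar; results that rest on them are given with and without them.

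Both genes were abundant in female abdomens and scarce in every other group. oskar averaged 760 ± 285 TPM in 3N female abdomens (SD, n = 5) and 1236 ± 50.2 TPM in 2N female abdomens (SD, n = 4). nanos averaged 283 ± 201 TPM in 3N female abdomens and 501 ± 133 TPM in 2N female abdomens. Elsewhere the group means of oskar lay between 1.32 and 43.7 TPM and those of nanos between 0 and 2.29 TPM. Both upper ends are 2N female heads, whose means without B21 were 16.9 TPM for oskar and 0.297 TPM for nanos.

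**Figure D1:**
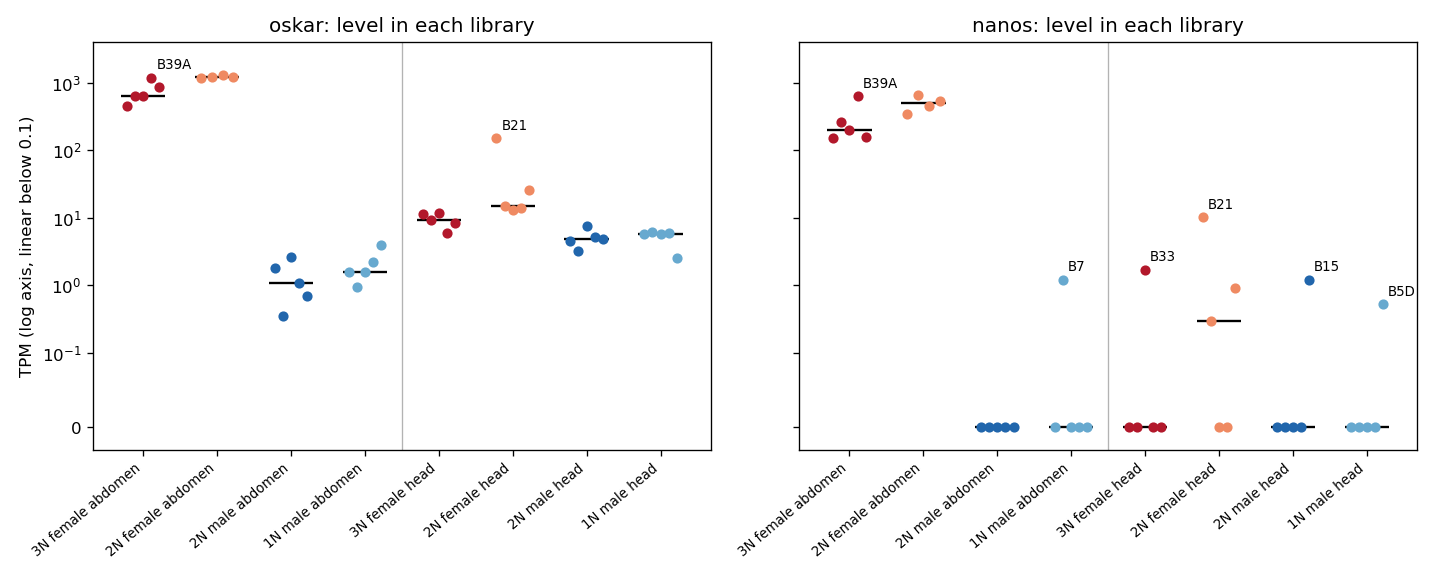
Level of oskar (left) and nanos (right) in each of the 39 libraries, in TPM on a log axis that is linear below 0.1, by group; points are libraries, black lines are group medians, and libraries named in the text are labelled. The 9 female abdomens lie at or above 451.69 TPM for oskar and 153.54 TPM for nanos, and no other library passes 151.13 TPM for oskar (B21) or 10.27 TPM for nanos (B21).

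The first question is how both genes differed between 3N and 2N female abdomens. oskar had 451.69, 631.97, 650.22, 1193.44 and 874.63 TPM in the 3N abdomens B36A, B37A, B38, B39A and B40A, against 1184.74, 1221.44, 1304.55 and 1233.05 TPM in the 2N abdomens B26A, B27, B28A and B30. The other 4 of the 5 3N libraries were below every 2N library, and B39A lay within the range of the 2N libraries. The 2N libraries were close together, while the 3N libraries spread widely. 

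The log2 difference of oskar (3N minus 2N) was -0.53 ± 0.42 (SE) and did not pass edgeR's quasi-likelihood test (adjusted p = 0.336), in a comparison in which 38.7% of the 11884 genes tested passed and 10.0% passed as lower. On log2 TPM the difference was -0.78, with a two-sided exact permutation p of 0.0317 over the libraries (adjusted over 14 such tests, p = 0.0404). Without B39A, the only 3N library within the 2N range, the log2 TPM difference was -0.96 and the groups did not overlap. Of the genes with a mean of at least 1 TPM, 44.0% were then lower in 3N without overlap. Leaving out that library fixed the lack of overlap and the exact permutation p of 0.0286, the smallest that 4 against 4 libraries can give.

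nanos had 153.54, 265.25, 203.85, 632.83 and 158 TPM in the 3N abdomens B36A, B37A, B38, B39A and B40A, against 345.92, 655.66, 451.11 and 549.35 TPM in the 2N abdomens B26A, B27, B28A and B30. Again B39A alone among the 3N libraries reached the range of the 2N libraries. The edgeR log2 difference was -0.76 ± 0.54 (adjusted p = 0.281), which did not pass. On log2 TPM it was -1.01 (exact permutation p = 0.0794), and without B39A it was -1.36 with no overlap (exact permutation p = 0.0286). Here too the lack of overlap and its p were fixed by leaving out B39A. As given for oskar, 44.0% of genes with a mean of at least 1 TPM were then lower in 3N without overlap. The median of all genes was 0.10 in the edgeR fit and -0.04 on log2(TPM + 1), so the scales differ by more than 0.1.

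Markers of other cell types differed between these groups, not all in the same direction. The fat body gene Akhr, the receptor of adipokinetic hormone, was at 1.45 to 46.1 TPM in 3N female abdomens (1.45 in B39A) and at 0.24 to 0.85 TPM in 2N female abdomens. The summed level of the 3 muscle genes Tm1, Tm2 and Zasp66 was 496 to 1635 TPM in 3N female abdomens (496 in B39A) and 373 to 401 TPM in 2N female abdomens, with Tm1 (log2 1.59) and Zasp66 (log2 4.08) higher and Tm2 lower in 3N (log2 -0.42; edgeR adjusted p = 0.000166, 2.69e-05 and 0.00244). None of these 3 genes was at 0 in every library. The summed level of the 4 neuron genes was 5.12 to 16.1 TPM in 3N female abdomens and 3.70 to 5.56 TPM in 2N female abdomens. Of these genes the opsin Lop1 was at 0 in every female abdomen, and the neuropeptide Pdf averaged 0.216 TPM in 3N and 0.595 TPM in 2N female abdomens. Syt1 averaged 9.93 TPM in 3N and 4.16 TPM in 2N, and Para 0.16 and 0.0375 TPM. In edgeR 2 of the 3 neuron genes tested passed as higher in 3N and 0 as lower. Of all genes tested in this comparison, 28.7% passed as higher in 3N and 10.0% as lower. The part of these cell types in the levels of oskar and nanos was not tested. In bulk RNA, fewer cells of a type and less RNA per cell cannot be told apart.

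The levels of the pair were compared within each library, where nanos was given as a percentage of oskar (both in TPM). It was 33.99, 42.0, 31.4, 53.0 and 18.1% in the 3N female abdomens B36A, B37A, B38, B39A and B40A, against 29.2, 53.7, 34.6 and 44.6% in the 2N female abdomens B26A, B27, B28A and B30. The ranges overlapped, with means of 35.7 ± 12.96% (SD, n = 5) in 3N and 40.5 ± 10.8% (SD, n = 4) in 2N. The log2 difference of the ratio was -0.23, which the exact permutation test did not separate from the spread between libraries (p = 0.524).

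**Figure D2:**
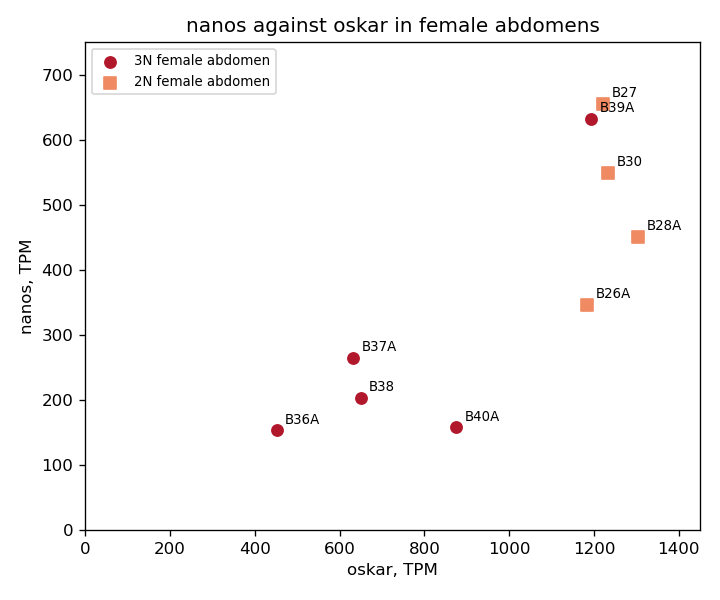
Level of nanos against oskar, in TPM on linear axes, in 5 abdomens of 3N females (circles) and 4 of 2N females (squares), each library labelled. The 2N libraries and B39A hold between 1184.74 and 1304.55 TPM of oskar, while the other 3N libraries hold at most 874.63 TPM.

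Of other genes of the same processes, few carry a recognisable symbol in the tables. Of 23 germ plasm and germ cell names searched, 2 matched (oskar and nanos), of 18 names of the piRNA pathway 0 matched, of 26 names of RNA-binding and translational control in the oocyte 1 matched (Egl), and of 27 names of meiosis and the egg 2 matched (Gaj and Hop2). Hop2, known with Mnd1 (Gaj in these tables) for its role in meiotic recombination, had 39.5 to 80.6 TPM in 3N female abdomens and 102 to 132 TPM in 2N female abdomens, with edgeR log2 -0.87 ± 0.77 (adjusted p = 0.391). Gaj had a log2 difference of -0.03 (edgeR adjusted p = 0.945). Egl fell by 0.35 on the log2 scale (edgeR adjusted p = 0.0495). Of the maternal patterning genes Cad, Hb and Gt, added to the lists after the data were seen, 0 of 3 passed, where 38.7% of all genes tested passed and 10.0% passed as lower.

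Both genes were higher in the abdomens of females than in those of males. In males oskar had 1.81, 0.35, 2.63, 1.09 and 0.70 TPM in the 2N male abdomens B16 to B20 and 1.57, 0.94, 1.59, 2.24 and 3.99 TPM in the 1N male abdomens B6A, B7, B8, B9 and B10. Every female abdomen was above every male abdomen. The share of all genes separated in this way was not counted. In edgeR 37.2% of the genes tested passed as higher in 2N female than in 2N male abdomens. Of the level in 2N female abdomens, the male means were 0.106% in 2N and 0.167% in 1N.

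oskar was 9.49 ± 0.58 higher on the log2 scale in 2N female than in 2N male abdomens (edgeR adjusted p = 1.03e-10), where 83.5% of genes passed. It was 8.74 ± 0.57 higher in 2N female than in 1N male abdomens (edgeR adjusted p = 2.03e-10), where 83.6% passed. It was 8.96 ± 0.57 higher in 3N female than in 2N male abdomens (edgeR adjusted p = 2.20e-10), where 74.9% passed. The median of all genes in the comparison of 2N female with 2N male abdomens was -0.46 with TMM scaling and -0.03 with library totals. Between 2N and 1N male abdomens the difference was -0.75 ± 0.42 and did not pass (edgeR adjusted p = 0.975; 0.0421% of genes passed).

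nanos was not counted in any 2N male abdomen, and 0 counts in 409 M allow up to 3 counts over the group. Of the 1N male abdomens, only B7 held any: 10 counts (95% Poisson interval 4.795 to 18.4) and 1.2 TPM. Against the 2N males, nanos was thus at least 13694-fold higher in 2N females, with 14457 counts, and at least 6637-fold higher in 3N females, with 11032 counts. These bounds use 3 counts over the 2N male group, and edgeR gave adjusted p-values of 8.66e-09 and 2.08e-08. Over 1N males, the pooled ratio in 2N females was 2259 (log2 10.77 ± 0.86 in edgeR, adjusted p = 2.89e-08). Without B7 the 1N males hold 0 counts, and the fitted log2 value, which then depends on the prior count and is no bound, was 15.22.

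The interaction of ploidy with sex in abdomens did not pass the test: it was 0.23 ± 0.59 for oskar (edgeR adjusted p = 0.822) and 3.66 ± 1.71 for nanos (edgeR adjusted p = 0.13), in a comparison in which 27.1% of genes passed. Without B7, which holds the 10 counts of nanos in males, the value for nanos was -0.77. Between 2N and 1N male abdomens nanos did not pass (edgeR adjusted p = 0.762). It was kept by the filter on low counts through the female abdomens, and in males this test rests on the 10 counts of B7.

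The heads held a trace of oskar in every library. oskar had 11.35, 9.12, 11.77, 6.02 and 8.36 TPM in the 3N female heads B31, B32, B33, B34A and B35A, against 151.13, 14.85, 12.97, 14.18 and 25.48 TPM in the 2N female heads B21 to B25. It had 4.56, 3.16, 7.43, 5.24 and 4.83 TPM in the 2N male heads B11, B12A, B13, B14 and B15, against 5.71, 6.12, 5.78, 5.94 and 2.54 TPM in the 1N male heads B1A, B2A, B3, B4A and B5D. B21 stood far above all other heads, and the 2N female heads without it still lay above every 3N female and every male head.

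As a share of the mean in 2N female abdomens, oskar averaged 0.754% in 3N female heads, 3.54% in 2N female heads (1.36% without B21), 0.408% in 2N male heads and 0.422% in 1N male heads. B21 alone reached 12.2%.

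**Figure D3:**
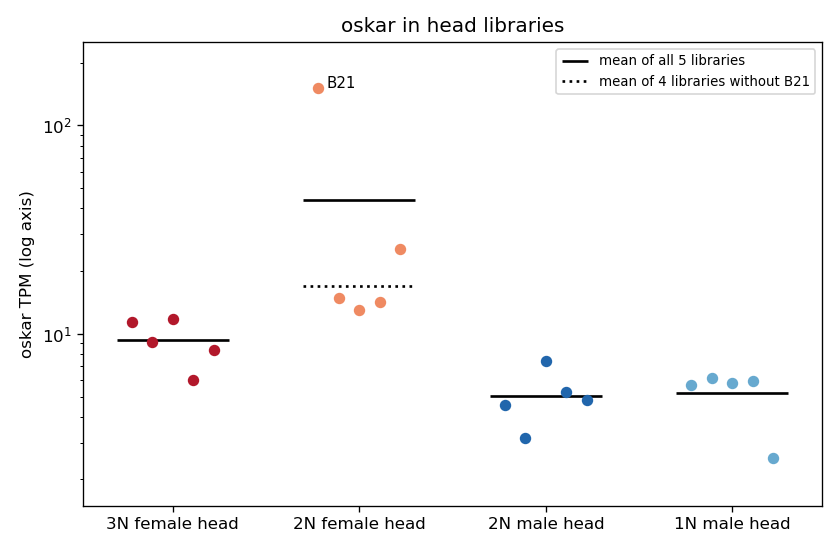
Level of oskar in each head library, in TPM on a log axis, for 3N and 2N females and 2N and 1N males; points are libraries, solid lines are means of all 5 libraries, and the dotted line is the mean of the 2N female heads without B21. The 2N female heads without B21 lie between 12.97 and 25.48 TPM, above the highest 3N female head at 11.77 TPM.

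Every 3N female head was below every 2N female head for oskar. The edgeR log2 difference was -2.25 ± 0.55 (adjusted p = 0.0671; 0.313% of 10846 genes passed). Without B21 it was -0.84 ± 0.27 (edgeR adjusted p = 0.214). The exact permutation test on log2 TPM gave -1.48 (p = 0.00794) with B21 and -0.84, a level 1.79-fold lower in 3N, without it (p = 0.0159), each the smallest p the design allows. In both cases the groups did not overlap; 3.42% of genes with a mean of at least 1 TPM were lower in 3N without overlap, and 4.24% without B21. All 2N female heads were shallow. With B21 kept and a term for deep libraries in the fit, the difference was -2.59 (edgeR adjusted p = 0.0362).

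Between the sexes in heads, oskar was higher in 2N females than in 2N males, by 3.04 ± 0.57 on the log2 scale (edgeR adjusted p = 0.000576), where 27.9% of genes passed. Without B21 it was 1.65 higher (edgeR adjusted p = 0.000325), and the groups did not overlap, as in 16.6% of genes with a mean of at least 1 TPM. On log2 TPM that difference was 1.74 (exact permutation p = 0.0159, the smallest that 4 against 5 libraries can give). Over 1N male heads it was 2.90 ± 0.57 higher in 2N female heads (edgeR adjusted p = 0.00136; 21.6% of genes passed), and 1.52 without B21 (edgeR adjusted p = 0.00107), again with no overlap, as in 14.2% of genes with a mean of at least 1 TPM. Depth differed between these groups: 0 of 5 2N female heads, 4 of 5 2N male heads and 1 of 5 1N male heads were deep.

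Between 3N female and 2N male heads the difference was 0.79 ± 0.54 (edgeR adjusted p = 0.316; 20.8% of genes passed), and on log2 TPM it was 0.90 with overlapping groups (exact permutation p = 0.0159). The difference between 2N and 1N male heads was -0.13 ± 0.54 and did not pass (edgeR adjusted p = 0.947; 0.0738% of genes passed). The ploidy difference by sex was -2.11 ± 0.77 with B21 and -0.71 without it (edgeR adjusted p = 0.483 with B21), where 0% of genes passed.

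nanos had few counts in heads, 84 in 6 of 20 libraries, and it did not pass the filter on low counts. It had 23 counts in the 3N female head B33 (1.70 TPM), 31, 1 and 3 counts in the 2N female heads B21, B22 and B25 (10.27, 0.29 and 0.90 TPM), 24 counts in the 2N male head B15 (1.21 TPM) and 2 counts in the 1N male head B5D (0.52 TPM). The other 14 heads held 0. Without B21, 53 counts in 5 of 19 libraries were left. Counting intervals were 14.6 to 34.5 in B33, 21.1 to 44.0 in B21 and 15.4 to 35.7 in B15. Without the filter, edgeR gave adjusted p-values from 0.19 to 0.913 in the 6 head comparisons.

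B33 and B15 were deep libraries, at 71.9 and 101 M, and B21 a shallow library, at 16.7 M. nanos as a percentage of oskar was 6.80% in B21, 14.4% in B33 and 25.1% in B15.

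B21 was examined against genes of the 2N female abdomen. It used 142 genes whose mean there reached 50 CPM (counts scaled to the TMM library size) and whose level was at most 1 CPM in each of the other female heads; nanos was among them and oskar was not. The level in B21 was not used to choose them, but the other female heads are low in these genes by that choice. In B21 their median level was 3.22% of the 2N female abdomen mean (quartiles 2.22 to 4.06%), and 140 of 142 were above every other female head. nanos was at 1.36% and oskar at 8.83%, or 7.83% after the mean of the other 2N female heads was subtracted. Of the 142 genes, 7.04% lay below nanos and 97.9% below oskar.

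**Figure D4:**
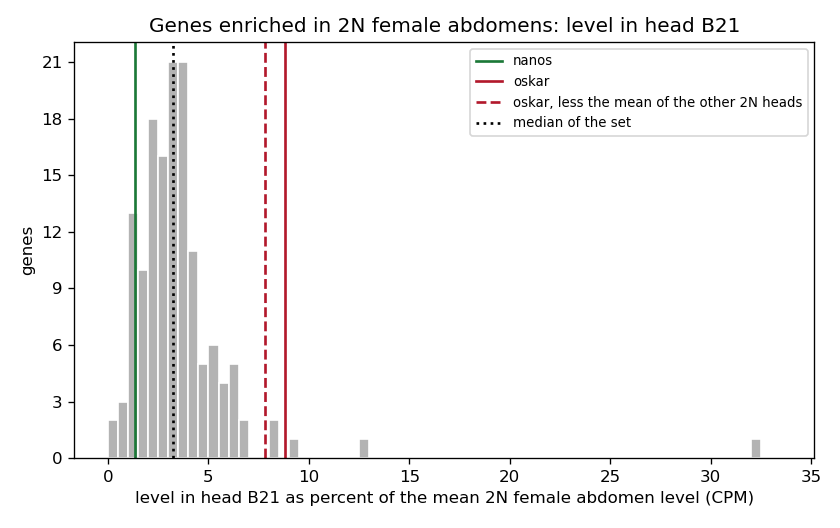
Number of genes (vertical axis) by level in the head B21 as a percentage of the mean in 2N female abdomens (horizontal axis, from CPM), for 142 genes high in those abdomens and at most 1 CPM in the other female heads. The lines show nanos at 1.36%, oskar at 8.83% and at 7.83% after subtraction of the other 2N female heads, and the median of the genes at 3.22%.

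The summed level of 141 of these genes, nanos left out, was 787 CPM in B21, 19.01 to 42.9 CPM in the other 2N female heads and 17.96 to 29.9 CPM in 3N female heads. It was 65.4 to 193 CPM in 2N male heads and 55.8 to 127 CPM in 1N male heads. B21 was above the male heads too, whose levels were not used to choose the genes. B33 and B15, the other heads with over 20 counts of nanos, ranked 3 of 5 in their groups. The neuron genes summed to 9411 TPM in B21 and 7544 to 9131 TPM in the other 2N female heads. They did not move together. Pdf was higher in B21 (1456 against 817 to 1082 TPM), and Lop1 lay within the range of the others (7802 against 6552 to 7865 TPM). Para (10.3 against 19.7 to 24.7 TPM) and Syt1 (142 against 152 to 170 TPM) were lower in B21. The part of abdomen RNA in the level of oskar and nanos in B21 was not tested.

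Abdomens and heads were compared within each kind of animal. oskar was 6.85 ± 0.63 higher in abdomens than in heads of 3N females (edgeR adjusted p = 7.68e-12; 72.8% of 12402 genes passed). In 2N females it was 5.28 ± 0.59 higher in abdomens (edgeR adjusted p = 6.35e-10; 80.3% passed), and 6.64 higher without B21. In 2N males it was lower in abdomens than in heads (edgeR log2 -1.23 ± 0.51, adjusted p = 0.0352; 65.3% passed).

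In 1N males the difference of abdomens from heads was -0.65 ± 0.52 (edgeR adjusted p = 0.275; 65.1% of genes passed). On log2 TPM it was -1.44 in 1N males (exact permutation p = 0.0159) and -2.21 in 2N males, where the groups did not overlap (exact permutation p = 0.00794), as was so in that direction for 47.5% of genes with a mean of at least 1 TPM. The call in 2N males was lost without any of B13, B14, B17, B19 or B20 (edgeR adjusted p = 0.0752, 0.0502, 0.0998, 0.0669 and 0.0881). With library totals in place of TMM scaling, the median of all genes moved from 0 to -0.34 in 2N males and from -0.02 to -0.37 in 1N males. On log2(TPM + 1) the median of all genes was -0.46 in 2N males and -0.48 in 1N males.

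nanos was higher in abdomens than in heads, by a pooled ratio of 547 in 3N females (11032 against 23 counts) and of 350.2 in 2N females (14457 against 35 counts). The edgeR log2 differences were 9.40 ± 1.13 in 3N females (adjusted p = 1.04e-08) and 8.36 ± 1.07 in 2N females (adjusted p = 2.82e-08). The value was 11.11 in 2N females without B21, and 14.34 in 3N females without B33, where the heads hold 0 counts and the fitted value is no bound. In 1N males, with 10 counts in abdomens and 2 in heads, and in 2N males, with 0 and 24, the test was not passed (edgeR adjusted p = 0.52 and 0.0685). nanos was kept by the filter on low counts through the female abdomens. In males these tests rest on B7, B5D and B15, the only male libraries with any count.

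The tissue difference depended on sex in 2N animals. The interaction was 6.51 ± 0.77 for oskar (edgeR adjusted p = 3.22e-09; 74.5% of genes passed) and 12.66 ± 2.11 for nanos (edgeR adjusted p = 3.40e-06). nanos had 0 counts in 2N male abdomens, so the size of its value depends on the prior count. All 24 of its counts in 2N male heads were in B15. Without B15 the call was lost, but 2N males then hold 0 counts of nanos. The fitted 8.35 is then no estimate of the interaction. The test of a difference between tissues in the ploidy effect of females was not passed, at 1.57 ± 0.72 for oskar (edgeR adjusted p = 0.0921; 32.3% of genes passed), which became 0.22 without B21, and 1.04 ± 1.37 for nanos (edgeR adjusted p = 0.603).

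**Figure D5:**
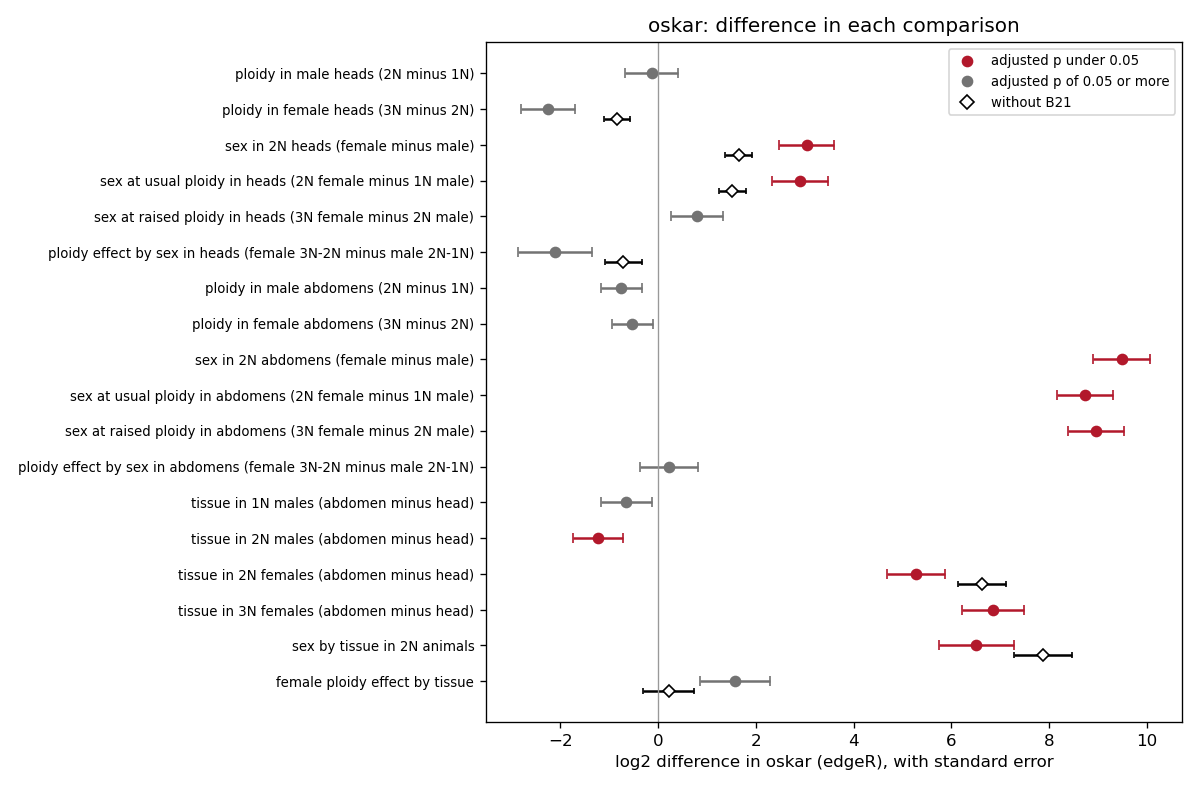
Log2 difference of oskar in each of the 18 comparisons, from edgeR, with its standard error; filled points are the values with all libraries, red where the adjusted p was under 0.05, and open diamonds are the values without B21. The abdomens of females against males stand highest, between 8.74 and 9.49, and the female head comparison moves from -2.25 to -0.84 without B21.

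By median TPM the groups ranked for oskar as 2N female abdomens (1227), 3N female abdomens (650.2), 2N female heads (14.85), 3N female heads (9.12), 1N male heads (5.78), 2N male heads (4.83), 1N male abdomens (1.59) and 2N male abdomens (1.09). Neighbours were not separated by the exact permutation test between 2N and 1N male heads (p = 0.897) and between 2N and 1N male abdomens (p = 0.23). nanos ranked 2N female abdomens (500.2) and 3N female abdomens (203.85) first; the medians of the other groups were 0.29 TPM in 2N female heads and 0 TPM elsewhere.

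Of 12401 genes ranked by Pearson correlation of log2 CPM over the 39 libraries, those closest to oskar were LOC100113617 (r = 0.988), LOC100121330, LOC100122325, LOC100678142 and LOC100679662, and nanos ranked 237 (r = 0.963). Closest to nanos was LOC100680228 (r = 0.996), and oskar ranked 713. Over the 9 female abdomens the gene closest to oskar was LOC100119459 (r = 0.991), nanos ranked 3054 (r = 0.80), and among the genes closest to nanos were LOC100678789 (r = 0.990) and Dnmt1a (r = 0.979), named for a DNA methyltransferase. The libraries share depth and group structure, so these values describe likeness of pattern only. With Spearman's rho in place of Pearson's r, at most 1 of the 5 closest genes was shared.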

How the data were processed

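The authors deposited estimated counts (a table made before deposit, not normalized) for 14621 genes and a table of TPM for 14613 genes; 16.8% of the estimated counts are not whole, and they were rounded. Genome build, annotation and strand setting were not given in the sources used here; of tools, RSEM 1.3.1 and STAR 2.7.11a stand in the submitters' processing notes, with no order. Per the labels' protocols, RNA was not treated with DNase. Symbols matched RefSeq assembly Nvit_psr_1.1, used for names only; no sequence table was used here. Reads from overlapping or antisense genes cannot be told apart.

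Tests used edgeR 4.0.16 (R 4.3.3; TMM, filterByExpr, quasi-likelihood F test, two-sided, Benjamini-Hochberg over all genes tested). Heads and abdomens were fitted separately, and all 39 libraries for tissue. Exact permutation tests used libraries as units, on log2 TPM; 14 were adjusted together, apart from the test of the ratio and those between neighbours in the order of levels. Alternatives were DESeq2 1.42.0, limma 3.58.1 (voom, and on log2(TPM + 1) or log2(TPM + 0.1)), library totals, no filter, depth terms and each library left out. The threshold was an adjusted p of 0.05. Intervals are 95% Poisson, and like the 3-count floor cover counting error only. The fit was tested on simulated data. Members and gene lists were chosen with earlier results of these data known. Named genes are the members, matched list genes and the 5 closest in pattern. A further added list is not reported here.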

Additional observations from a re-analysis of the deposited data

Results flagged for a closer look

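In 17 groups of values, 8 values stood apart from the rest of their group, with B21 and B5D apart for both genes; chance flags about 1 group in 20, and a group that is 0 but for 1 library is flagged by its form. For oskar these were the 2N female head B21 at 151.13 TPM (others 12.97 to 25.48 TPM) and the 1N male head B5D at 2.54 TPM (others 5.71 to 6.12 TPM). For nanos these were the 3N female abdomen B39A at 632.83 TPM and the 2N female head B21 at 10.27 TPM. The others for nanos were the only library of their group with any count: the 1N male abdomen B7 at 1.2 TPM, the 3N female head B33 at 1.7 TPM, the 2N male head B15 at 1.21 TPM and the 1N male head B5D at 0.52 TPM.

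The tissue difference also differed between the sexes in 2N animals, by 6.51 for oskar and 12.66 for nanos on the log2 scale (edgeR interaction, adjusted p = 3.22e-09 and 3.40e-06). Without B15 the fitted value for nanos was 8.35, but 2N males then hold 0 counts of nanos, so it is no estimate.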

How the results depend on the processing

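Of 727 alternative values for 33 results, 681 kept their direction and side of the threshold, 24 passed only under the alternative, 6 lost the call and 16 changed sign; the causes were not tested. oskar in female heads passed with DESeq2 (-2.24), with a depth term (-2.59), with the compared groups alone (-2.24) and with all 39 libraries in the fit (-2.25). These fits all include B21. In female heads oskar also passed by exact permutation on log2 TPM (-1.48, and -0.84 without B21). Permutation p-values were adjusted over 14 such tests and those of the fits over all genes tested, so these calls are not at like thresholds. oskar in 3N female against 2N male heads passed with deep libraries only (0.96) and with the compared groups alone (0.80). In female abdomens oskar passed with limma voom (-0.58), log2(TPM + 1) (-0.78), the compared groups alone (-0.51) and permutation (-0.78, and -0.96 without B39A). There nanos passed with voom (-0.86), log2(TPM + 1) with or without the filter (-1.01), without B39A and B6A (-1.11) and by permutation without B39A (-1.36). B6A is a 1N male abdomen. Without B39A alone the edgeR value was -1.07, and no edgeR fit that left out 1 library passed (lowest adjusted p = 0.0973). The permutation calls without B39A were fixed by leaving out the only 3N library in the 2N range. The ploidy difference by sex in abdomens changed sign on log2 TPM for oskar (-0.36 with or without the filter, -0.048 with 0.1 added) and nanos (-0.78 and -0.27), and that of nanos passed with DESeq2 (3.67). The tissue difference of oskar in 1N males passed on log2 TPM (-1.05 with or without the filter, -1.38 with 0.1 added). For nanos it changed sign in 1N males with voom (-0.17) and passed in 2N males with library totals (-4.45). In 2N males nanos had 0 counts in abdomens, and its 24 counts in heads were all in B15. The female ploidy effect of nanos by tissue changed sign on log2 TPM (-0.33).

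With each library left out in turn, 352 of 366 values kept direction and call. The ranges were, for nanos, -4.86 to 0 for ploidy in male abdomens, -0.77 to 4.10 for ploidy by sex in abdomens, -2.72 to 4.39 for tissue in 1N males, -4.65 to 0 for tissue in 2N males, 10.31 to 15.22 for 2N female against 1N male abdomens, 8.35 to 15.44 for sex by tissue and -1.72 to 5.98 for the female ploidy effect by tissue. For oskar they were -0.15 to 0.66 for ploidy by sex in abdomens and -1.67 to -0.99 for tissue in 2N males. Deep-only and shallow-only fits gave no value where under 2 libraries of a group were left. No paired analysis was possible because the labels give libraries names and no shared replicate numbers. Outside female abdomens most libraries held 0 counts of nanos, among them the deepest, the 2N male head B11 at 132 M. The part of depth in this was not tested.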
